A study of Gallus gallus with 16 samples.

Results

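The mesenchymal core (pulp) of growing flight feathers was compared with the pulp of growing body plumes in White leghorn chickens. The flight feathers were primary remiges, the large feathers of the wing tip, whose follicles had been cut into a lateral (narrow vane) and a medial (wide vane) side. The body plumes were dorsal plumes and breast plumes. The members were the 8 mesenchyme libraries of the 16 libraries in the series, 4 from remiges (lateral and medial, batch I and batch II of each) and 4 from plumes (dorsal and breast, batch I and batch II of each). The other 8 libraries held the epithelium of the same feathers. For a remige library 3 follicles were pooled and for a plume library 25, and 4 μg of RNA were sequenced as 50 bp reads. The labels name no transgene, treatment, sex or age, and the study's text speaks of roosters. Lateral and medial libraries came from the 2 sides of cut follicles, so the 4 remige libraries are not 4 independent samples of birds, and p-values measure the spread between these libraries. The batches are biological replicates in the study's methods.

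The feather follicle holds a tube of epithelium, which builds the keratinised barbs and the shaft, around a vascular pulp of fibroblasts, endothelial cells, nerves and other cells. The pulp signals to the epithelium, and skin transplantation in birds has long placed the information on feather type in the mesenchyme. In skin and limb mesenchyme, transcription factors of the HOX, TBX and ZIC families mark where a cell lies along the body, and secreted growth factors, WNT proteins and their inhibitors act between mesenchyme and epithelium.

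Values are given as TPM, the deposited RPKM (read numbers per kilobase of gene and per library total) rescaled so that each library sums to 1000000 over the 15512 genes found in both tables of the series. Library values are given in the order lateral I, lateral II, medial I, medial II for remige pulp, and dorsal I, dorsal II, breast I, breast II for plume pulp. Differences are remige minus plume on the log2(TPM + 1) scale, with their standard errors, and they understate the change of low genes. A gene was called where limma's two-sided test gave a Benjamini-Hochberg adjusted p under 0.05 over 13110 tested genes. It was called a wide-gap gene where, in addition, the lowest library of the higher feather type was at least 2 times the highest library of the other on TPM + 1.

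Remiges and plumes stand in separate tables, and every plume library is labelled with a run date and lane that no remige library carries. Feather type therefore cannot be told apart from table or sequencing run in any result below. Within remige pulp, batch II is labelled with a sequencing lane and batch I with none. The part of sequencing in contrasts between these remige batches was not tested. The remige pulp libraries held 29.4 to 37.0 M alignments (M, 1000000) and the plume pulp libraries 23.4 to 26.1 M, without overlap. The 20 tested fibroblast markers summed to 22437 to 25787 TPM in remige pulp and to 30006 to 35607 TPM in plume pulp, against 327 to 364 TPM in remige epithelium and 227.8 to 454 TPM in plume epithelium. The pulp also held keratinocyte RNA. The 27 tested keratinocyte markers summed to 2051 to 2994 TPM in remige pulp and to 1628 to 2794 TPM in plume pulp, against 12642 to 14028 TPM in remige epithelium and 13358 to 16953 TPM in plume epithelium. KRT14, a keratin of basal keratinocytes, averaged 694 TPM in remige pulp and 449.8 TPM in plume pulp, against 1368 TPM in remige epithelium and 1396 TPM in plume epithelium. The part of this RNA in the results below was not tested. Of those keratinocyte markers 1 was called higher (3.7%) and 3 lower (11.1%), against 8.98% and 9.31% over all tested genes. The median difference of the 27 markers was −0.13, so the values of KRT14 do not stand for the list.

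One feature set both batch II remige libraries apart from the other 6 pulp libraries. HNRPK, which RefSeq places on chromosome W, the chromosome found in hens only, was read at 4.15, 98.2, 3.98 and 97.1 TPM in remige pulp, against 3.41, 4.49, 3.88 and 2.57 TPM in plume pulp. Both high values belonged to batch II remiges. SPINW, another W gene, was at 12.3 TPM in each batch II remige library, at 0 in each batch I remige library and at most at 0.0408 TPM in plume pulp. Genes placed on chromosome Z, of which cocks have a pair and hens a single copy, were lower in the same libraries: the median deviation of 526 Z genes minus that of 10059 autosomal genes was −0.38 and −0.42 on the log2 scale in batch II remiges and between 0.11 and 0.17 in the other 6 pulp libraries. Over tested Z genes the median difference between remige and plume pulp was −0.28 with all libraries and 0 with batch I remiges alone. Counts are therefore also given for batch I remiges against the 4 plume libraries.

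**Figure D1:**
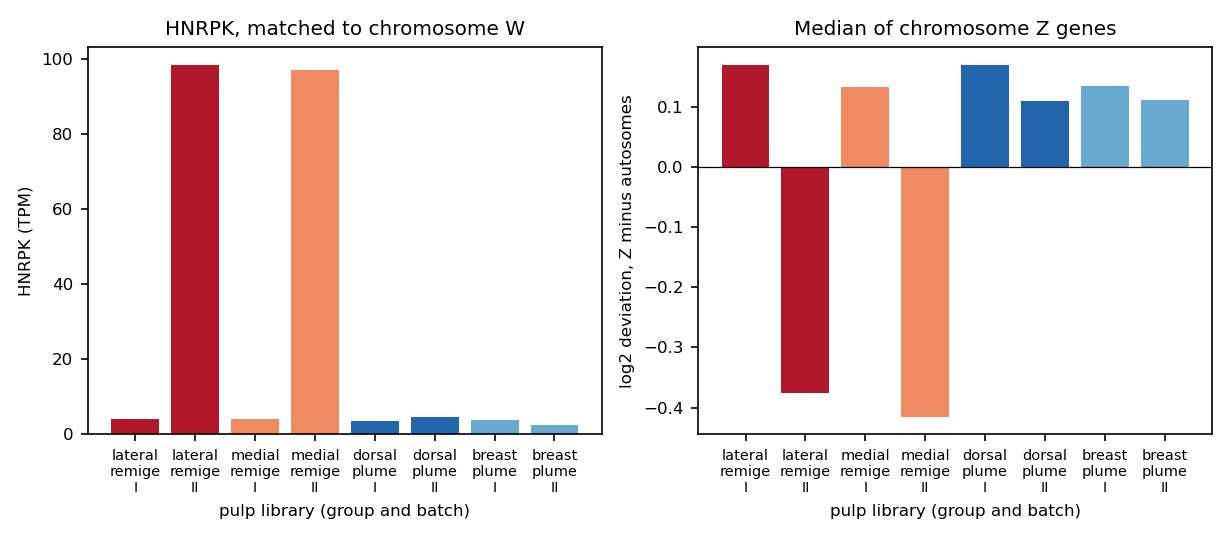
TPM of HNRPK, a gene on chromosome W, in each of the 8 pulp libraries (left, bars from 0), and the median log2 deviation of chromosome Z genes minus that of autosomal genes in the same libraries (right). Lateral and medial remige batch II stand at 98.2 and 97.1 TPM of HNRPK and at −0.38 and −0.42 for the Z genes, apart from the other 6 libraries.

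Pulp of the 2 feather types shared most of its transcriptome. Across genes, which are not independent replicates, log2 values of a remige and a plume library correlated at 0.913 to 0.95, against 0.96 and 0.963 between the batches of a remige side, 0.991 and 0.986 between the batches of dorsal and breast plumes, and 0.934 to 0.945 between dorsal and breast libraries. In all 2397 genes were called (18.3% of those tested), 1177 higher in remige pulp (8.98%) and 1220 lower (9.31%). With batch I remiges alone 2192 genes were called (16.7%), 1049 higher (8%) and 1143 lower (8.72%), and 1392 of the 2397 were called in the same direction. With libraries of a feather type averaged within each batch (2 against 2), 1227 genes were called, 962 of them among the 2397 in the same direction. This treats both sides of a remige batch as 1 sample. It also averages dorsal with breast plumes, which takes their difference out of the spread, so it is not a stricter form of the same test. Of the called genes named here 9 then lost their call: GLI3, BCMO1, HOXA2, HOXD10, EDNRB2, ATF3, NR4A3, FOS and EGFL7 (limma adjusted p = 0.0561 to 0.115). Leaving out 1 library gave 1249 calls (without dorsal plume batch II) to 2150 calls (without breast plume batch II), and 1412 to 1596 without dorsal plume batch I or any single remige library. On RPKM as deposited, without rescaling, 1718 genes were called higher and 825 lower, so the share of higher calls depended on the scaling (67.6%, against 49.1% on TPM). The libraries did not overlap for 1666 genes higher in remige pulp (12.7%) and 1864 lower (14.2%). Wide gaps were rarer: 192 genes (1.46%), with 92 higher (0.702%) and 100 lower (0.763%). Of these 192 genes, 183 also had a wide gap with batch I remiges alone (350 genes, 2.67%), 7 were placed on chromosome Z and none on W.

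Among genes with a symbol and a mean of at least 25 TPM in the higher feather type, wide gaps with higher remige levels included those of BKJ, WFIKKN2, PHGDH, ZIC4, C4orf48, DRAM1, TNFRSF6B, ZIC1, COL8A1, WNT2B and IGF1. The widest with lower remige levels were those of ASIP, LTBP2, NTN1, DRAXIN, PSCA, LGI1, B3GAT2, AGTRAP, ALCAM, HOXC6, COMP and STMN2. These genes hold secreted signals, matrix proteins, guidance cues of the nervous system and transcription factors of body position, which are taken in turn. These and many genes named below were chosen by their gap. That their libraries do not overlap follows from this choice and is not further evidence.

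**Figure D2:**
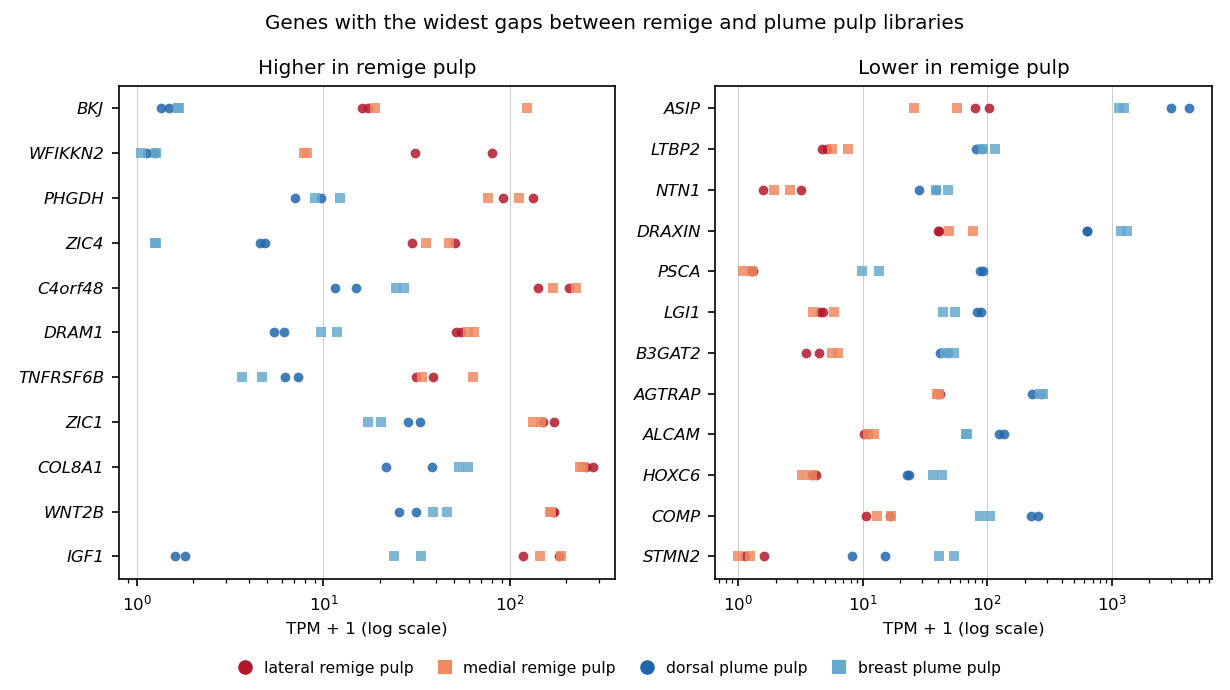
TPM + 1 (log axis) in each of the 8 pulp libraries for 11 genes higher and 12 genes lower in remige pulp with wide gaps, remige libraries in red and orange and plume libraries in blue. The genes were chosen by their gap, so in each row every remige library lies on one side of every plume library. IGF1 was at 116 to 185 TPM in remige pulp and 0.610 to 32.5 TPM in plume pulp. NTN1 was at 0.584 to 2.23 TPM in remige pulp and 27.2 to 47.7 TPM in plume pulp.

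HOX genes, which mark position along the body and the limb, moved in opposite directions. Of 27 tested HOX genes 7 were higher in remige pulp (25.9%) and 11 lower (40.7%), and 10 had wide gaps. Over all tested genes the shares were 8.98% higher, 9.31% lower and 1.46% with wide gaps. These shares are the background for this and every later list count. With batch I remiges alone 5 were higher and 11 lower. HOXA11, HOXA13 and HOXD11, genes of the 5′ part of their clusters that pattern the outer limb in vertebrate embryos, were present in remige pulp and under 1 TPM in plume pulp. HOXA11 was at 18.0, 11.5, 10.8 and 6.48 TPM in remige pulp, against 0.0335, 0.0157, 0.0154 and 0 TPM in plume pulp (difference 3.57 ± 0.26, limma adjusted p = 0.00016). HOXA13 was at 7.58, 5.84, 5.57 and 4.40 TPM in remige pulp, against 0.0964, 0.0151, 0 and 0.0283 TPM in plume pulp (2.71 ± 0.18, adjusted p = 0.000107). HOXD11 was at 6.75, 5.63, 6.79 and 6.73 TPM in remige pulp and at most at 0.635 TPM in plume pulp (2.32 ± 0.14, adjusted p = 1e-04). All 4 remige libraries lay above all 4 plume libraries for these genes, as for 12.7% of all tested genes. HOXC12 was also higher in remige pulp, at a low level (1.22 to 1.73 TPM, against 0.0875 to 0.299 TPM in plume pulp). HOXA7 averaged 57.6 ± 6.81 TPM in remige pulp and 27.4 ± 3.67 TPM in plume pulp (SD, n = 4 each). HOXD8 rose by 0.88 on the log2 scale. HOXD10 was at 10.7 to 17.9 TPM in remige pulp and at most at 10.2 TPM in plume pulp, where it averaged 9.03 TPM (0.63 ± 0.18, adjusted p = 0.0411), and leaving out any single library but lateral remige batch I ended its call (0.0561 to 0.0996). Neither was called with batch I remiges alone.

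The HOX genes lower in remige pulp lay mostly in the 3′ and middle parts of the clusters. HOXB3 was at 0.467, 1.22, 0.449 and 0.981 TPM in remige pulp, against 11.4, 13.2, 34.7 and 34.98 TPM in plume pulp (difference −3.64 ± 0.39, limma adjusted p = 0.000973). HOXB5 was at 6.68 to 8.18 TPM in remige pulp, against 32.7 TPM in each dorsal and 103 TPM in each breast library. HOXC6 was at 3.22, 2.92, 2.27 and 2.92 TPM in remige pulp, against 22.5, 21.6, 42.3 and 35.4 TPM in plume pulp (−2.99 ± 0.23, adjusted p = 0.000181). Breast plumes were above dorsal plumes, and dorsal plumes above remiges, for each of these 3 genes. HOXB2 (difference −2.67), HOXA4 (−1.87), HOXB6 (−1.37), HOXA2 (−1.29) and HOXA3 (−0.86) were lower as well. HOXB4 was at 20.8 to 25.4 TPM in remige pulp, 31.5 and 35.7 TPM in dorsal plumes and 134 and 131 TPM in breast plumes, and it did not pass the test (limma adjusted p = 0.0645).

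HOXC10 and HOXC11 were highest in dorsal plumes. HOXC10 was at 5.74, 4.36, 9.13 and 6.43 TPM in remige pulp, against 158 and 189 TPM in dorsal plumes and 24.6 and 27.9 TPM in breast plumes (difference −3.25 ± 0.67, limma adjusted p = 0.0146). It was not called with batch I remiges alone (adjusted p = 0.0756). HOXC11 was at most at 0.112 TPM in remige pulp, against 6.46 and 6.82 TPM in dorsal plumes and 2.86 and 3.40 TPM in breast plumes (−2.40 ± 0.26, adjusted p = 0.00101). HOXC9 was intermediate in remige pulp, at 3.84 to 7.40 TPM, against 12.1 and 11.97 TPM in dorsal plumes and 0.639 and 0.919 TPM in breast plumes. HOXB9 was at 12.8 and 11.6 TPM in dorsal plumes and at most at 0.753 TPM in the remige and breast libraries. HOXA5, HOXA6, HOXB-7, HOXB9, HOXC9, HOXD3, HOXD4 and HOXD9 were not called.

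**Figure D3:**
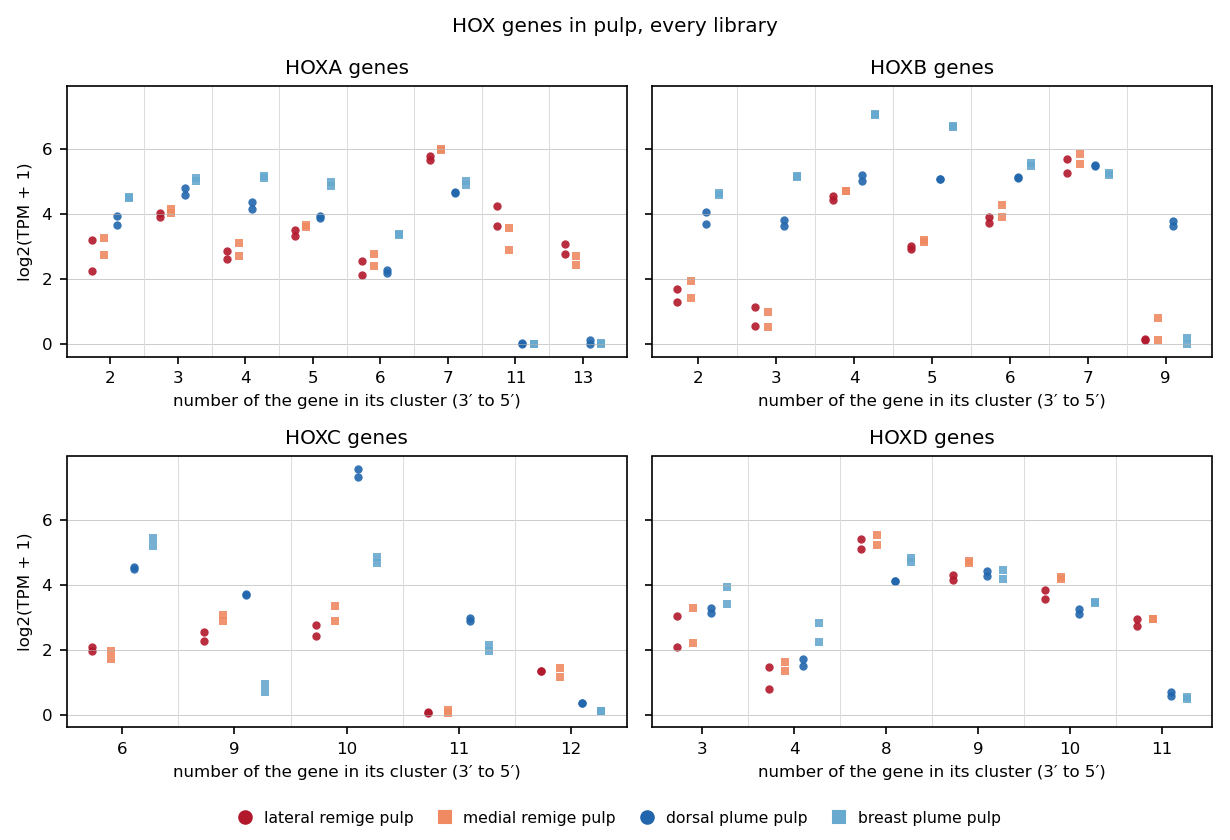
Level of tested HOX genes as log2(TPM + 1) in each of the 8 pulp libraries, 1 panel per cluster with the genes in order from 3′ to 5′. HOXA11, HOXA13 and HOXD11 were at 4.40 to 18.0 TPM in remige pulp and at most at 0.635 TPM in plume pulp, and HOXB3 and HOXB5 were lowest in remiges and highest in breast plumes.

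Other regulators of limb and body position moved in both directions. Of 58 tested members 12 were higher in remige pulp and 13 lower, with 13 wide gaps, and with batch I remiges alone 8 were higher and 7 lower. ZIC1 and ZIC4, zinc finger factors known from the dorsal neural tube and somites, were higher in remiges. ZIC4 was at 28.9, 49.8, 34.4 and 46.1 TPM in remige pulp, against 3.61, 3.89, 0.271 and 0.249 TPM in plume pulp (difference 4.03 ± 0.50, limma adjusted p = 0.00179). ZIC1 averaged 149 ± 16.01 TPM in remige pulp and 23.7 ± 7.20 TPM in plume pulp (SD, n = 4 each; 2.65 ± 0.20, adjusted p = 0.000181). For both genes dorsal plumes stood above breast plumes. No plume library reached a remige library, as for 12.7% of all tested genes. SHOX, a homeobox gene of the middle limb segments, was at 18.3, 22.3, 18.5 and 21.7 TPM in remige pulp, against 1.32, 1.77, 0.609 and 0.334 TPM in plume pulp (3.45 ± 0.24, adjusted p = 0.000134). SIM1, a bHLH-PAS factor chosen after its values were seen, was at 29.1 to 42.9 TPM in remige pulp and 3.40 to 11.9 TPM in plume pulp (2.38 ± 0.30, adjusted p = 0.00193).

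OSR1, a zinc finger factor of intermediate and lateral plate mesoderm, was at most at 0.0797 TPM in remige pulp, against 26.8, 24.7, 7.81 and 10.02 TPM in plume pulp (difference −3.92 ± 0.37, limma adjusted p = 0.000541). Every plume library lay above every remige library, as for 14.2% of all tested genes. IRX1 and GSC, chosen after their values were seen, had the same form: IRX1 was at 0.224 to 0.903 TPM in remige pulp and 9.07 to 24.0 TPM in plume pulp, and GSC was at most at 0.103 TPM in remige pulp, against 41.6, 38.0, 4.20 and 3.28 TPM in plume pulp. IRX1 was called (adjusted p = 0.000595), and GSC was called with all libraries (adjusted p = 0.0137) but not with batch I remiges alone (0.0628). The T-box genes of limb identity were also examined after their values were seen. TBX4, known from the hindlimb, was at 44.0 and 41.7 TPM in dorsal plumes, at most at 1.06 TPM in remige pulp and at most at 0.212 TPM in breast plumes. TBX5, known from the forelimb, was at most at 0.0586 TPM in remige pulp and in dorsal plumes at most at 0.0608 TPM, and it was at 6.27 and 6.03 TPM in breast plumes. Neither passed the test between feather types (adjusted p = 0.243 for TBX4 and 0.188 for TBX5).

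Insulin-like growth factor genes were the list with the highest share of higher calls: 8 of 19 tested members were higher in remige pulp and 4 lower, with a median difference of 0.55, against −0.03 over all tested genes. With batch I remiges alone 5 were higher and 2 lower. Both ligands were higher. IGF2, a fetal growth factor in mammals, was at 800.0, 1183, 672 and 898 TPM in remige pulp, against 229, 205, 217 and 177 TPM in plume pulp (difference 2.07 ± 0.17, limma adjusted p = 0.000257). IGF1, the ligand under growth hormone control, was at 116, 182, 143 and 185 TPM in remige pulp, against 0.813 and 0.610 TPM in dorsal plumes and 32.5 and 23.0 TPM in breast plumes (4.47 ± 0.99, adjusted p = 0.0187). Every remige library lay above every plume library for each ligand, as for 12.7% of all tested genes. IGF1 also split the plume tracts, and it was not called with batch I remiges alone (adjusted p = 0.0915). STC2, an inhibitor of the protease PAPPA, averaged 14.9 ± 8.68 TPM in remige pulp and 1.51 ± 1.12 TPM in plume pulp. IGF2BP2, an RNA-binding protein of IGF2 mRNA, averaged 10.4 ± 0.585 TPM in remige pulp and 3.26 ± 0.736 TPM in plume pulp (SD, n = 4 each). The receptor IGF1R moved the other way, at 5.62 to 8.26 TPM in remige pulp and 12.99 to 17.0 TPM in plume pulp (−1.0 ± 0.15, adjusted p = 0.00375).

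Other secreted factors were higher in remige pulp as well. MDK (midkine), a heparin-binding growth factor chosen after its values were seen, was at 6188, 7232, 4797 and 6274 TPM in remige pulp, against 859, 814, 2097 and 2159 TPM in plume pulp (difference 2.18 ± 0.35, limma adjusted p = 0.00546). WFIKKN2, a secreted protein that binds myostatin-type ligands, was at 78.9, 30.0, 7.21 and 6.87 TPM in remige pulp and at most at 0.276 TPM in plume pulp (4.09 ± 0.69, adjusted p = 0.00671). Both lateral libraries stood above both medial ones for WFIKKN2, and this difference between sides was not tested. That no remige library overlapped with plumes follows from the choice of WFIKKN2 by its gap. TNFRSF6B, a decoy receptor for Fas ligand, was at 30.2 to 62.0 TPM in remige pulp and 2.66 to 6.29 TPM in plume pulp. Among genes of metabolism and the lysosome, PHGDH, the first enzyme of serine synthesis, averaged 102 ± 24.9 TPM in remige pulp and 8.52 ± 2.19 TPM in plume pulp (3.43 ± 0.22, adjusted p = 1e-04), and DRAM1, a lysosomal membrane protein of autophagy, averaged 56.2 ± 5.47 TPM in remige pulp and 7.28 ± 3.01 TPM in plume pulp (SD, n = 4 each; 2.86 ± 0.24, adjusted p = 0.000323). C4orf48 was at 139.9 to 224.3 TPM in remige pulp and 10.6 to 25.9 TPM in plume pulp.

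BKJ, a feather keratin gene, was at 15.1, 16.3, 122 and 17.8 TPM in remige pulp, against 0.4997, 0.351, 0.690 and 0.661 TPM in plume pulp (difference 4.20 ± 0.60, limma adjusted p = 0.00361). A single library, medial batch I, held most of its remige mean. Feather keratins form a family of near-identical copies, and how reads that map to several copies were counted is not given in the sources used here, so the value is uncertain. Feather keratin is a product of the epithelium, where BKJ averaged 3300.2 TPM in remiges and 43.8 TPM in plumes, and the part of epithelium carried into the pulp in this result was not tested.

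Of 52 tested genes of WNT signalling 3 were higher in remige pulp (5.77%) and 10 lower (19.2%), against 8.98% and 9.31% over all tested genes. The counts were 3 and 8 with batch I remiges alone. WNT2B, a ligand, was at 169, 170.1, 165 and 162 TPM in remige pulp, against 24.3, 30.4, 45.0 and 37.5 TPM in plume pulp (difference 2.28 ± 0.17, limma adjusted p = 0.00016). Its 4 remige values, with an SD of 3.89 TPM, lay far above all plume values. WNT4 was higher too (19.4 ± 4.14 TPM in remige pulp and 8.81 ± 2.27 TPM in plume pulp), whereas WNT5A, a ligand of the non-canonical branch, was at 160.5 to 197 TPM in remige pulp and 326 to 368 TPM in plume pulp (−0.96 ± 0.08, adjusted p = 0.000319). LEF-1, a nuclear effector, averaged 50.0 ± 6.37 TPM in remige pulp and 134 ± 25.5 TPM in plume pulp. A secreted inhibitor, FRZB, was among the lower genes, and the other secreted inhibitors of the list are not reported here. FRZB was at 107, 59.8, 107 and 81.3 TPM in remige pulp, against 616, 665, 254 and 205 TPM in plume pulp (−2.13 ± 0.40, adjusted p = 0.0102), and it was not called with batch I remiges alone (adjusted p = 0.0623). DKK-1, an inhibitor of the LRP co-receptors that was not among the 52 and was chosen after its values were seen, was at 0.858, 1.12, 1.39 and 0.772 TPM in remige pulp, against 20.5, 24.9, 24.3 and 18.9 TPM in plume pulp (−3.51 ± 0.16, adjusted p = 2.03e-05). For DKK-1 the ranges of dorsal and breast plumes overlapped, and every remige library lay below them.

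Among 17 tested hedgehog genes 3 were higher in remige pulp and 4 lower (2 and 5 with batch I remiges alone), with 3 wide gaps. The higher ones were led by SCUBE1 and SCUBE3, secreted and cell-surface proteins of a family that helps to release hedgehog ligands. SCUBE1 was at 42.7, 46.0, 34.5 and 28.3 TPM in remige pulp, against 7.36, 8.11, 7.22 and 5.55 TPM in plume pulp (difference 2.26 ± 0.18, limma adjusted p = 0.000217). SCUBE3 averaged 109.7 ± 24.4 TPM in remige pulp and 24.0 ± 4.96 TPM in plume pulp (SD, n = 4 each; 2.14 ± 0.20, adjusted p = 0.000501). The transcription factor GLI3 was lower, at 5.02, 8.80, 6.25 and 7.02 TPM in remige pulp, against 13.8, 13.7, 14.9 and 11.4 TPM in plume pulp (−0.91 ± 0.17, adjusted p = 0.00966; 0.066 with batch averages).

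Of 21 tested genes of retinoic acid metabolism and signalling 1 was higher in remige pulp and 6 lower (0 and 5 with batch I remiges alone). The lower genes included enzymes that make and store retinoids. BCMO1, which cleaves β-carotene, was at 21.8, 7.31, 21.1 and 6.57 TPM in remige pulp, against 50.1, 46.7, 47.3 and 37.0 TPM in plume pulp. Both batch II remige libraries held the lowest values, and with batch averages BCMO1 was not called (limma adjusted p = 0.0931). LRAT, which esterifies retinol, averaged 0.982 ± 0.297 TPM in remige pulp and 3.53 ± 0.613 TPM in plume pulp, and the receptor RXRA averaged 14.4 ± 2.80 TPM in remige pulp and 30.3 ± 3.13 TPM in plume pulp (SD, n = 4 each). CYP26B1, which degrades retinoic acid, was at 26.3, 56.4, 8.39 and 19.4 TPM in remige pulp, against 219.8, 225.5, 90.1 and 78.8 TPM in plume pulp (difference −2.56 ± 0.57, limma adjusted p = 0.0186). Its adjusted p was 0.0503 without dorsal plume batch I and 0.053 without dorsal plume batch II.

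Of 10 tested BMP and GDF ligands none was higher and 1 was lower (10%, near the 9.31% over all tested genes). The lower one was INHBB, an activin subunit. INHBB averaged 2.89 ± 0.945 TPM in remige pulp and 13.1 ± 2.65 TPM in plume pulp (SD, n = 4 each). Its difference was −1.87 ± 0.21 (limma adjusted p = 0.00117). Of 15 tested BMP antagonists 1 was higher (6.67%, against 8.98% over all tested genes) and 3 lower (20%, against 9.31%). With batch I remiges alone the counts were 0 and 1. FSTL1 was at 4653, 5799, 3886 and 4375 TPM in remige pulp, against 2143, 2153, 3548 and 2891 TPM in plume pulp (0.82 ± 0.19, adjusted p = 0.023; 0.0932 with batch I remiges alone). Leaving out either dorsal plume or either lateral remige library also ended its call (adjusted p = 0.0543 to 0.0634). NBL1 was at 237 to 320.4 TPM in remige pulp and 448 to 743 TPM in plume pulp (−1.14 ± 0.19, adjusted p = 0.00666).

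A list of 10 genes held those that the study followed up for vane shape. GDF10, GREM1, FST, CYP26B1, CRABP-I, EYA2 and FGF10 came from its screen on these samples. By that choice they were split within each feather type, and their counts are not independent evidence. ALDH6, RARA and RARB were not in the screen's lists, and the study detected no differential expression of the receptors, for which it cites in situ hybridization. RARA was at 77.5 and 91.8 TPM in dorsal plumes and 77.6 and 82.1 TPM in breast plumes. In remige pulp RARA was at 59.6 and 62.9 TPM on the lateral side and 72.2 and 75.6 TPM on the medial side. RARB was there at 27.9 and 26.1 TPM on the lateral side and 18.4 and 16.6 TPM on the medial side. These differences between sides were not tested. Only EYA2 and CYP26B1 among the 10 genes were called between feather types. EYA2, a transcriptional co-activator, was at 217, 231, 117 and 118 TPM in remige pulp, against 77.8, 71.2, 8.18 and 8.03 TPM in plume pulp (difference 2.64 ± 0.77, limma adjusted p = 0.0464; 0.145 with batch I remiges alone). Leaving out any single remige or breast plume library ended its call (adjusted p = 0.0758 to 0.105). GDF10 was at 48.6, 22.3, 72.8 and 80.05 TPM in remige pulp, against 4.62, 4.45, 191 and 145 TPM in plume pulp. GREM1 was at 768, 543, 104 and 75.2 TPM in remige pulp, against 237, 277, 143 and 99.0 TPM in plume pulp. The remige and plume libraries overlapped for both genes. FST (adjusted p = 0.0918), CRABP-I (0.246), ALDH6 (0.673), FGF10 (0.333), RARA (0.0853) and RARB (0.0742) also missed the threshold. FGF genes at large had 4 members higher and 6 lower of 27 tested.

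The largest fitted difference of the named genes was that of ASIP, the agouti protein that blocks the melanocortin receptor of pigment cells. ASIP was at 103, 79.5, 56.4 and 24.8 TPM in remige pulp, against 4197, 2972, 1242 and 1139.6 TPM in plume pulp (difference −5.11 ± 0.54, limma adjusted p = 0.000914). The lateral side held more than the medial side in remiges and dorsal plumes more than breast plumes, and all remige libraries lay below all plume libraries. Markers of pigment cells moved the same way: of 11 tested melanocyte markers none was higher and 8 were lower in remige pulp (0 and 7 with batch I remiges alone), with 4 wide gaps. The 14 melanocyte markers found in both tables, tested or not, summed to 32.7 to 45.0 TPM in remige pulp and 95.2 to 155 TPM in plume pulp. PMEL, a scaffold protein of the melanosome, was at 0.738, 0.990, 0.849 and 1.29 TPM in remige pulp, against 21.8, 29.7, 10.4 and 31.8 TPM in plume pulp (−3.53 ± 0.32, adjusted p = 0.000464). MLANA was at 0.283 TPM in lateral batch I and 0 in the other remige libraries, against 9.93 to 24.7 TPM in plume pulp, and TYRP1, an enzyme of pigment synthesis, was at most at 0.316 TPM in remige pulp and at 9.49 to 38.1 TPM in plume pulp. TYR, the first enzyme of melanin synthesis, averaged 0.0402 ± 0.0470 TPM in remige pulp and 3.51 ± 0.974 TPM in plume pulp, and EDNRB2, an endothelin receptor of avian pigment cells, averaged 0.329 ± 0.257 TPM in remige pulp and 2.56 ± 1.17 TPM in plume pulp (SD, n = 4 each). In bulk tissue, fewer cells of a type and less RNA per cell cannot be told apart. The same markers were low in remige epithelium and higher in plume epithelium (MLANA averaged 0.283 and 51.8 TPM), and the part of carried-over epithelium in the pulp values was not tested.

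Of 38 tested endocrine and neuropeptide genes 5 were higher in remige pulp and 11 lower, and 5 and 8 with batch I remiges alone. The receptors of sex steroids differed in opposite directions. ESR1, the estrogen receptor α, was at 3.23, 4.75, 2.09 and 3.63 TPM in remige pulp, against 192, 190.2, 29.2 and 22.2 TPM in plume pulp (difference −4.05 ± 0.72, limma adjusted p = 0.00823). PGR, the progesterone receptor, was at 3.70, 6.55, 3.86 and 3.18 TPM in remige pulp and at most at 1.19 TPM in plume pulp (1.67 ± 0.27, adjusted p = 0.00596). Both remige batches lay on the same side of every plume library for these receptors. With batch I remiges alone limma's adjusted p was 0.0381 for ESR1 and 0.025 for PGR. The remige batches differed in W-linked signal, and the part of bird sex in the ESR1 and PGR differences was not tested. EDNRB, an endothelin receptor, was at 11.01 to 20.7 TPM in remige pulp and 3.38 to 5.96 TPM in plume pulp (1.60 ± 0.22, adjusted p = 0.00297).

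Matrix genes moved in both directions. Of 34 tested collagens 5 were higher and 11 lower (4 and 12 with batch I remiges alone), and of 83 other matrix and matrix protease genes 12 were higher and 13 lower (6 and 13), with 8 wide gaps. COL8A1, a short-chain collagen of vessels, was at 252, 275, 235 and 243 TPM in remige pulp, against 37.0, 20.6, 52.4 and 58.1 TPM in plume pulp (difference 2.65 ± 0.28, limma adjusted p = 0.000995). COL4A5 and COL4A6, paired chains of basement membrane collagen, averaged 453 ± 74.3 and 287 ± 81.5 TPM in remige pulp and 158 ± 40.8 and 113 ± 18.6 TPM in plume pulp (SD, n = 4 each), and both were called (adjusted p = 0.00167 and 0.00429). ADAMTS8, a secreted protease, was at 16.4 to 20.5 TPM in remige pulp and 1.89 to 3.48 TPM in plume pulp (2.38 ± 0.18, adjusted p = 0.00016). The collagen of nerve-muscle junctions and other adhesion sites COL13A1 was lower, at 21.4 to 38.5 TPM in remige pulp and 76.9 to 134 TPM in plume pulp.

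LTBP2, a microfibril protein, was at 3.72, 4.19, 4.70 and 6.69 TPM in remige pulp, against 80.9, 90.2, 115 and 92.1 TPM in plume pulp (difference −4.05 ± 0.17, limma adjusted p = 1.87e-05). FBN2, which forms the microfibrils themselves, was at 33.5, 54.8, 39.3 and 46.9 TPM in remige pulp, against 249, 225.8, 202.99 and 173 TPM in plume pulp (−2.27 ± 0.17, adjusted p = 0.00016). FBLN2, which binds to them and was chosen after its values were seen, averaged 119 ± 15.8 TPM in remige pulp and 780.1 ± 399.7 TPM in plume pulp (SD, n = 4 each; −2.55 ± 0.35, adjusted p = 0.00285). No remige library reached a plume library for any of these 3 genes, as for 14.2% of all tested genes. COMP, a matrix protein of cartilage and tendon, was at 9.56, 15.6, 12.2 and 15.9 TPM in remige pulp, against 253, 221.7, 104 and 85.9 TPM in plume pulp (−3.42 ± 0.35, adjusted p = 0.000869). CHAD, a cartilage leucine-rich protein chosen after its values were seen, was at 90.1 to 129 TPM in remige pulp and 379 to 751 TPM in plume pulp (−2.26 ± 0.23, adjusted p = 0.000735). The collagenase MMP13 was at 2.49 to 6.63 TPM in remige pulp, against 102 and 87.5 TPM in dorsal plumes and 21.0 and 21.2 TPM in breast plumes (−3.14 ± 0.55, adjusted p = 0.00818).

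Of 20 tested fibroblast markers none was higher in remige pulp and 10 were lower, with a median difference of −0.50, and 8 were lower with batch I remiges alone. COL1A2, a chain of the main fibrillar collagen, averaged 3082 ± 489 TPM in remige pulp and 5439.9 ± 696 TPM in plume pulp, and PDGFRA, a growth factor receptor of fibroblasts, averaged 159.7 ± 12.5 TPM in remige pulp and 326 ± 40.4 TPM in plume pulp (SD, n = 4 each). The dermal transcription factor TWIST2, listed as CDERMO-1, was at 47.9, 46.7, 28.4 and 31.1 TPM in remige pulp, against 161, 166, 126 and 115 TPM in plume pulp (difference −1.88 ± 0.20, limma adjusted p = 0.00101). Of 11 tested cartilage, tendon and bone markers none was higher and 5 were lower (4 with batch I remiges alone). The 14 markers of this list found in both tables, tested or not, summed to 74.3 to 102.5 TPM in remige pulp and 187 to 406 TPM in plume pulp. These markers and the fibrillar matrix genes share members, so their counts are not separate evidence.

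Genes best known from the nervous system held some of the widest gaps in both directions. Of 55 tested axon guidance genes 5 were higher in remige pulp (9.09%, near the 8.98% over all tested genes) and 13 lower (23.6%, against 9.31%). With batch I remiges alone the counts were 2 and 12. NTN1, a secreted cue that attracts or repels axons, was at 0.584, 2.23, 0.957 and 1.60 TPM in remige pulp, against 27.2, 37.5, 47.7 and 37.9 TPM in plume pulp (difference −4.07 ± 0.25, limma adjusted p = 1e-04). DRAXIN, a repulsive cue that binds netrin and its receptor, was at 39.7, 39.0, 76.1 and 48.7 TPM in remige pulp, against 630.0, 627, 1325 and 1175 TPM in plume pulp (−4.15 ± 0.31, adjusted p = 0.00016). For each of these 2 partners the highest remige library was well below the lowest plume library. ROBO1, a receptor of SLIT proteins, averaged 22.4 ± 4.73 TPM in remige pulp and 55.2 ± 9.99 TPM in plume pulp, and SEMA3A, a repulsive cue, averaged 19.1 ± 3.94 TPM in remige pulp and 48.7 ± 4.83 TPM in plume pulp (SD, n = 4 each). NTNG1, a membrane-bound netrin relative, was higher, at 19.0 to 25.9 TPM in remige pulp and 6.90 to 8.32 TPM in plume pulp (1.40 ± 0.13, adjusted p = 0.000445).

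LGI1, a secreted protein of synapses, was at 2.98 to 4.93 TPM in remige pulp and 42.8 to 89.0 TPM in plume pulp, and B3GAT2, which makes the HNK-1 sugar epitope of neural crest and nerve cells, was at 2.49 to 5.31 TPM in remige pulp and 41.2 to 52.7 TPM in plume pulp. Of 12 tested Schwann cell and neuron markers 2 were higher and 3 lower. GAP43, a growth cone protein, was at 33.8, 20.6, 22.4 and 21.6 TPM in remige pulp, against 0.169, 0.158, 0.233 and 0.372 TPM in plume pulp (difference 4.35 ± 0.18, limma adjusted p = 1.87e-05). STMN2, a neuronal regulator of microtubules, was at 0.602, 0.140, 0.240 and 0 TPM in remige pulp, against 7.20, 14.1, 53.2 and 40.2 TPM in plume pulp (−4.22 ± 0.56, adjusted p = 0.00247). These growth cone genes thus had opposite gaps. The 15 markers of this list found in both tables, tested or not, summed to 262 to 328 TPM in remige pulp and 212 to 287 TPM in plume pulp, with overlap. FABP7, a fatty acid binding protein of immature glia, averaged 135 ± 27.4 TPM in remige pulp and 48.4 ± 10.8 TPM in plume pulp (SD, n = 4 each).

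The other genes lower in remige pulp with the widest gaps were cell-surface and membrane proteins. PSCA, a GPI-anchored surface protein, was at most at 0.307 TPM in remige pulp, against 92.2, 87.0, 8.92 and 12.5 TPM in plume pulp. ALCAM, an adhesion molecule, was at 10.1, 9.17, 11.3 and 9.95 TPM in remige pulp, against 136, 124, 68.3 and 66.1 TPM in plume pulp (difference −3.09 ± 0.24, limma adjusted p = 0.000226). AGTRAP, which binds the angiotensin II receptor, had the steadiest values: 41.0, 38.3, 39.6 and 38.5 TPM in remige pulp, against 269, 229, 281 and 265 TPM in plume pulp (−2.70 ± 0.08, adjusted p = 2.63e-06).

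Genes of the cell cycle were called in a single direction. Of 55 tested members 21 were higher in remige pulp and none lower, with a median difference of 0.30, and with batch I remiges alone 13 were higher and none lower. The changes were small: CDC45, a replication factor, averaged 33.8 ± 1.67 TPM in remige pulp and 15.9 ± 2.80 TPM in plume pulp, TYMS, which makes thymidylate, averaged 63.8 ± 3.78 TPM in remige pulp and 36.9 ± 3.67 TPM in plume pulp, and CDK1, the mitotic kinase, averaged 224.1 ± 22.3 TPM in remige pulp and 144 ± 10.8 TPM in plume pulp (SD, n = 4 each). The summed level of the 55 genes was 3632 to 3863 TPM in remige pulp and 2622 to 3055 TPM in plume pulp, without overlap.

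Of 23 tested immediate early and stress genes, which respond quickly to many stimuli, 5 were higher in remige pulp and 2 lower (7 and 3 with batch I remiges alone). NR4A3, an orphan nuclear receptor, was at 25.2, 179, 20.1 and 189 TPM in remige pulp, against 7.73, 9.03, 6.99 and 4.62 TPM in plume pulp. FOS was at 10.1, 32.0, 12.2 and 56.5 TPM in remige pulp and 3.61 to 5.66 TPM in plume pulp, and ATF3 was at 10.96, 32.3, 10.8 and 40.5 TPM in remige pulp and 3.29 to 4.54 TPM in plume pulp. The batch II remige libraries were highest for these 3 genes, and batch I remiges lay between them and the plumes. NR4A3 was not called in limma's test without either batch II remige library or any single plume library (adjusted p = 0.0506 to 0.0564), nor was FOS without lateral remige batch II or any single plume library (0.0532 to 0.068). With batch averages NR4A3, FOS and ATF3 were not called (0.115, 0.112 and 0.0798). DUSP1, a phosphatase of the same response, averaged 14.9 ± 4.34 TPM in remige pulp and 4.56 ± 1.33 TPM in plume pulp (SD, n = 4 each).

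Among markers of vessels, 4 of 19 tested endothelial markers were higher in remige pulp and none lower (2 and 0 with batch I remiges alone). LYVE1, a hyaluronan receptor of lymphatic vessels, was at 11.2, 20.1, 10.1 and 22.3 TPM in remige pulp, against 3.65, 5.37, 4.63 and 3.37 TPM in plume pulp (difference 1.63 ± 0.27, limma adjusted p = 0.00641). Its highest values were those of batch II remiges. PROX1 (−0.26, adjusted p = 0.438) and FLT4 (0.48, 0.133), also known from lymphatic vessels, were not called. EGFL7, a secreted endothelial protein, averaged 110.5 ± 21.1 TPM in remige pulp and 61.8 ± 6.32 TPM in plume pulp (SD, n = 4 each). Of 12 smooth muscle and pericyte markers 2 were higher and none lower. Of 21 leukocyte markers 2 were higher and 1 lower, of 13 erythrocyte and thrombocyte markers 1 and 1, of 14 adipocyte markers none and 2, and of 4 skeletal muscle markers 1 and none. Of 33 glycolysis and hypoxia genes 6 were higher and 2 lower, of 19 cytokines and chemokines 1 and 1, and of 16 interferon-stimulated genes none and 1. In the directions without a call, limma's unadjusted p was under 0.05 for 2 cartilage, tendon and bone markers, 1 smooth muscle marker and no marker or gene of the other lists named with none. These shares stood beside 8.98% higher and 9.31% lower over all tested genes. With batch I remiges alone 1 erythrocyte and thrombocyte marker was higher and 5 were lower. The counts were then 2 and 0 for leukocyte markers, 1 and 3 for adipocyte markers, and 0 and 0 for skeletal muscle markers. Over all tested genes 8% were then higher and 8.72% lower.

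**Figure D4:**
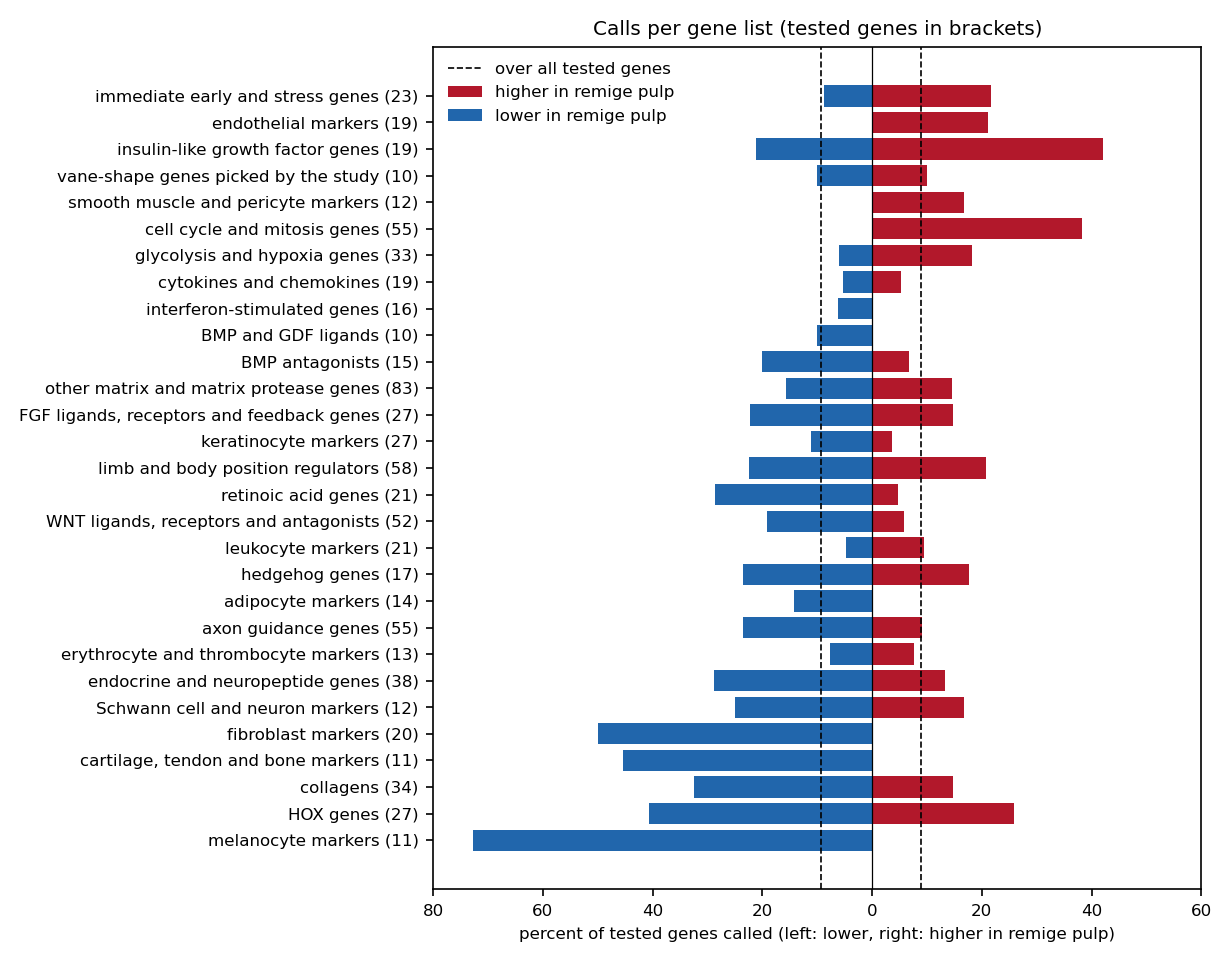
Percent of the tested genes of each list called higher in remige pulp (red, to the right) or lower (blue, to the left), with dashed lines at the 8.98% and 9.31% of all 13110 tested genes. Lists are ordered by their median difference. Insulin-like growth factor genes and cell cycle genes reach farthest to the right (8 of 19 and 21 of 55), and melanocyte markers farthest to the left (8 of 11).

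The epithelium of the same feathers served to ask which differences were those of pulp. In epithelium 4051 of 11788 tested genes were called (34.4%), 883 higher in remiges (7.49%) and 3168 lower (26.9%). That split depended on the scaling, since quantile normalization gave 1642 higher and 1504 lower. The difference in pulp minus the difference in epithelium, tested over all 16 libraries, was called for 1414 of 13110 genes (10.8%), 1033 with a positive value (7.88%) and 381 with a negative one (2.91%). The model did not pair pulp with epithelium of the same feathers, so its p-values treat these libraries as independent. On the remige side batch I pulp is labelled with no sequencing lane, whereas batch I epithelium carries the lane of batch II. The part of sequencing in the difference between tissues was not tested. With equal upper quartiles the split was 578 positive and 526 negative, with quantile normalization 565 and 481, and with medians of ratios 562 and 528. Of the 192 wide-gap genes of pulp, 122 were tested in epithelium, where 57 were called in the same direction and 5 in the opposite one. For 144 of the 192 the pulp difference was of another size than that in epithelium, and each of these 144 had the sign of its pulp difference, which the choice by a wide gap in pulp favours.

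ZIC1 and ZIC4 were near 0 in epithelium. ZIC4 averaged 0.0541 TPM in remige epithelium and 0.0241 TPM in plume epithelium, and its pulp difference exceeded the epithelial one by 3.99 (limma adjusted p = 0.000304). HOXA11, HOXA13 and HOXD11 averaged under 1 TPM in the epithelium of both feather types (adjusted p = 2.23e-06, 7.39e-07 and 7.39e-07 for the difference from pulp). HOXC10 was reversed between the tissues: it averaged 6.41 TPM in remige pulp and 99.9 TPM in plume pulp, but 11.5 TPM in remige epithelium and 0.463 TPM in plume epithelium (pulp minus epithelium −6.32, adjusted p = 8.72e-05). HOXC12 was higher in remiges in both tissues, at 4.48 TPM in remige epithelium and 0 in plume epithelium, and the epithelial difference was the larger one (−1.36, adjusted p = 0.00114). HOXB3 was lower in remiges in both tissues, with 0.720 TPM in remige epithelium, against 11.7 TPM in plume epithelium (adjusted p = 0.0125 in epithelium and 0.351 for the difference between tissues). HOXB5 was not called in epithelium (adjusted p = 0.0646), where it was at most at 0.117 TPM in remiges, at 0.276 and 0.870 TPM in dorsal plumes and at 33.0 and 33.95 TPM in breast plumes. The pulp and epithelial differences of PMEL, MLANA and TYR were not shown to differ (adjusted p = 0.337, 0.346 and 0.0933). SCUBE1 was higher in remige pulp and lower in remige epithelium (1.53 TPM, against 9.06 TPM in plume epithelium; pulp minus epithelium 4.11, adjusted p = 2.75e-05), and WNT2B had the same form (3.79 TPM in remige epithelium and 10.4 TPM in plume epithelium; 3.68, adjusted p = 0.000515).

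**Figure D5:**
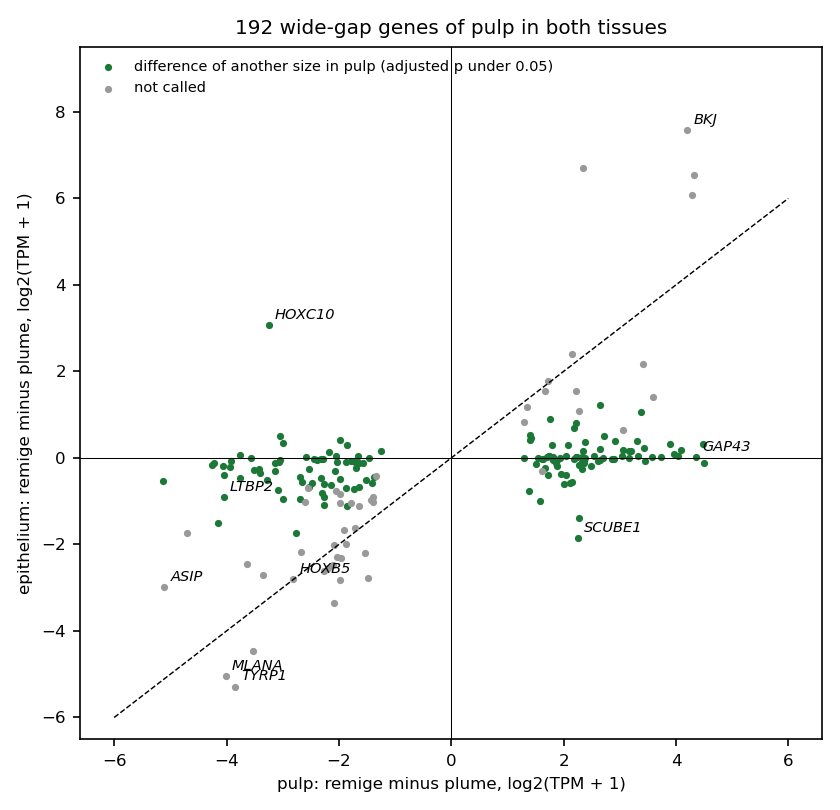
Difference between remiges and plumes, in log2(TPM + 1), in epithelium (vertical axis) against pulp (horizontal axis) for the 192 wide-gap genes of pulp, with a dashed line at equal differences. Green points mark the 144 genes whose pulp difference was of another size, most of them near 0 in epithelium, and HOXC10 lies at −3.25 in pulp and 3.07 in epithelium.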

How the data were processed

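RNA-seq of feather pulp and epithelium was read from 2 tables of RPKM deposited by the authors, 1 for remiges and 1 for plumes. According to the study's methods, trimming and mapping (galGal4) used Partek Flow; the submitters' processing notes also name TopHat2. Versions, annotation, strand setting and the counting of multi-mapping reads are not given in the sources used here. The depth behind each library was taken from the deposited alignment counts. Beside the gene columns listed by name, 14994 columns of the remige table and 14901 of the plume table hold the same measure, and 15512 genes are in both. Raw counts were not used here, so low values carry an unknown counting error.

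RPKM were rescaled to 1000000 per library (TPM), genes averaging 1 TPM or more in any of the 4 pulp groups were kept, and log2(TPM + 1) was fitted with limma 3.58.1 (lmFit, eBayes with trend, 6 residual degrees of freedom) in R 4.3.3, with feather type as the only term, tested two-sided. Epithelium was fitted alike, and the difference between tissues in 1 model over 16 libraries. The fit was tested on simulated data. Python 3.11.15 and matplotlib 3.10.9 were used for tables and plots. Chromosomes and symbols came from RefSeq (GRCg7b), matched by symbol (11123 genes) or synonym (764); since the builds differ, no coordinates are given.

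Named genes were the 12 per direction with the widest gap (symbol, at least 25 TPM in the higher type, called), up to 5 called members per list with the widest gap, all tested HOX genes, the genes picked by the study, and up to 6 genes found in a single table. Some of the genes this rule gives are not reported here, though list counts include them. The members and the 30 lists were chosen with earlier results of these data known. Batch numbers were not treated as pairs. Alternatives were the pseudocount, the filter, 5 scalings, the variance model, the design, leaving out libraries, batch I remiges alone, and leaving out Z and W genes, of which the last 2 were added after the data were seen.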

Additional observations from a re-analysis of the deposited data

Results flagged for a closer look

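The size of the feather type difference was tested between pulp and epithelium, and the pulp difference minus the epithelial one was called for 1414 genes (limma, adjusted p under 0.05). Among the genes with the widest gaps and higher remige pulp levels it was 3.91 for WFIKKN2, 3.19 for PHGDH, 3.99 for ZIC4, 2.91 for C4orf48, 2.89 for DRAM1, 2.54 for TNFRSF6B, 2.44 for ZIC1, 1.44 for COL8A1, 3.68 for WNT2B and 4.15 for IGF1 on the log2 scale. Among those lower in remige pulp it was −3.14 for LTBP2, −3.87 for NTN1, −2.64 for DRAXIN, −3.84 for LGI1, −2.78 for B3GAT2, −1.74 for AGTRAP, −2.35 for ALCAM, −2.05 for HOXC6, −3.18 for COMP and −4.10 for STMN2.

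Among HOX genes the difference between tissues was 3.54 for HOXA11, 2.71 for HOXA13, 2.31 for HOXD11, 1.99 for HOXA2, 1.55 for HOXA3, 1.45 for HOXA7, 3.16 for HOXB4, 2.90 for HOXD3 and 2.08 for HOXD4. It was −1.17 for HOXB6, −2.88 for HOXC9, −6.32 for HOXC10, −2.34 for HOXC11 and −1.36 for HOXC12. For HOXA2 and HOXA3 the positive value stood beside lower remige levels in both tissues, with the larger difference in epithelium. HOXB4, HOXD3 and HOXD4 were lower in remige epithelium but were not called in pulp (limma adjusted p = 0.0645, 0.114 and 0.123).

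Some genes were listed in the remige table alone and entered no comparison. In lateral remige pulp of batch II, HINTW, a gene of chromosome W, was at 1179 TPM, WPKCI at 852 TPM, ENSGALG00000022690 at 114 TPM, ENSGALG00000028307 at 17.9 TPM and ENSGALG00000022611 at 9.75 TPM. Medial remige pulp of batch II held 1276, 872, 124, 17.3 and 10.5 TPM of the same genes in that order, and both batch I remige pulp libraries were at 0. ENSGALG00000006495 was at 5.76 TPM in lateral batch II, and at 3.27 to 5.76 TPM over the 4 remige pulp libraries. Each labelled group had 2 libraries, too few to look for a library far from the others of its group.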

How the results depend on the processing

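The count of 2397 called genes was 3773 with the 4 groups fitted separately, 1227 with batch averages (2 against 2), 79 with batch II libraries alone, and 0 with batch I libraries alone, where 3077 genes had an unadjusted p under 0.05 in limma's test. It ranged from 1249 to 2150 when 1 library was left out, lowest without dorsal plume batch II. Of the other alternatives, a filter of 25 TPM gave the lowest count (1618, over fewer genes). The 192 wide-gap genes became 291 and 105 with pseudocounts of 0.1 and 5 TPM, 110 with a filter of 25 TPM, 444 and 49 with a gap of 1.5 and 4 times, 0 with batch I alone, 77 with batch II alone, 350 with batch I remiges against all plumes, and 201 to 233 with 1 library left out. The 1414 genes that differed between tissues became 775 with a filter of 25 TPM and 833 without batch II remiges. Batch numbers did not pair libraries across feather types: deviations of lateral and medial remiges correlated at 0.761, but those of remiges and plumes at −0.129 to 0.176. With batch as a block 2578 genes were called, 192 with a wide gap, and 1662 differed between tissues; of the 98 called genes named here EYA2 alone lost its call (adjusted p = 0.063). The correlation within feather type and batch was 0.0953, and a fit that used it called 1919 genes. This value pools the sides of a remige batch with the tracts of a plume batch. Deviations of dorsal and breast plumes correlated at 0.0966, against the 0.761 of the remige sides. The pooled value therefore does not measure or correct the dependence between remige sides. Over all alternatives the 98 genes kept direction and call in 2286 values, lost their call in 231 and reversed in none. Of those 231, 98 were with batch I alone and 80 with batch II alone. Among named genes that were not called, ALDH6 turned to 0.18 with batch I alone and 0.11 with batch I remiges against all plumes, and with 1 library left out HOXC9 ranged from −0.086 to 0.91, GDF10 from −0.074 to 1.64, GREM1 from −0.103 to 1.01 and ALDH6 from −1.23 to 0.017. The cause of these moves was not tested.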
